A study of Mus musculus with 6 samples.

Results

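The genes described here build, fill and clear the endoplasmic reticulum (ER) of mouse leukaemia cells. They were taken from a fixed list of 54 symbols: 28 genes of the unfolded protein response, ER folding and ER-associated degradation (ERAD), and 26 genes of protein translocation, signal peptide cleavage and N-glycosylation. Of these, 53 had a probe set of their own among 19937 measured genes. The exception was Sec61g, the gamma subunit of the translocation channel, whose probe sets carry the symbols of other genes as well, so it has no value here. The cells were #483, 1 clone of T-cell acute lymphoblastic leukaemia (T-ALL) of C57BL6 background. In 3 samples they had received 100 µM 4EGI-1 for 2 h, a small molecule that disrupts the contact between the cap-binding protein eIF4E and its scaffold eIF4G, and 3 samples were untreated by their titles, although the protocols name DMSO as the counterpart, so whether they received solvent is not settled. All samples, those without 4EGI-1 too, are RNA from pooled polysome fractions of a sucrose gradient. A value is thus the amount of an mRNA on polysomes relative to the other mRNAs of its array. It does not separate the cell's stock of that mRNA from its ribosome loading. In bulk samples such as these, fewer cells of a type and less RNA per cell cannot be told apart.

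Proteins destined for the secretory pathway are caught at the ribosome by the signal recognition particle, threaded through the Sec61 channel, cut by signal peptidase and glycosylated by oligosaccharyltransferase. Chaperones such as BiP (Hspa5) and the protein disulfide isomerases fold them, and ERAD sends failures back to the proteasome. When unfolded protein accumulates, the sensors IRE1 (Ern1), PERK and ATF6 raise the genes of folding and degradation through the transcription factors XBP1, ATF4 and cleaved ATF6, while PERK also lowers translation by phosphorylating eIF2α. T-cell leukaemia cells depend on this machinery for receptors and other surface proteins.

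The transcriptional arm of that response reads short promoter elements, and matches to them are shown for the listed genes. Herpud1 was chosen for display as the gene that rose most, so after its value was seen. Whether these elements have a part in the differences was not tested. RefSeq promoter windows (GRCm38.p6, the 250 bases before the annotated start) were found for 44 of the 54 genes and searched on both strands. The ER stress response element, CCAAT and CCACG with 9 bases between them, was present upstream of 8 of these 44 genes. Over all genes 0.113% of 32851 promoter windows held it, a share of windows and not of genes. As the list was made to hold genes of the unfolded protein response, these shares are no test. All of the 8 belong to the unfolded protein response and ERAD group, of which 24 genes had a window, and none to the 20 translocation and glycosylation genes with one. In the lines that follow the paired boxes are in capitals. A promoter that holds the element in the opposite orientation shows CGTGG before ATTGG.
Hspa5 (chr2:34772019-34772049, plus strand): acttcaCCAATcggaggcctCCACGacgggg
Hsp90b1 (chr10:86705632-86705662, minus strand): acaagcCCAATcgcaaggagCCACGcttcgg
Hsp90b1 (chr10:86705527-86705557, minus strand): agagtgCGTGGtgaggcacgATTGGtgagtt
Calr (chr8:84847069-84847099, minus strand): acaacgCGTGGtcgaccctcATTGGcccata
Canx (chr11:50325794-50325824, minus strand): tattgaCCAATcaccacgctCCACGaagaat
Creld2 (chr15:88819514-88819544, plus strand): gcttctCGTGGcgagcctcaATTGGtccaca
Dnajc3 (chr14:118937821-118937851, plus strand): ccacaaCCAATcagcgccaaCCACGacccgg
Pdia6 (chr12:17266485-17266515, plus strand): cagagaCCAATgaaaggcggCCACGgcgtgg
Syvn1 (chr19:6046526-6046556, plus strand): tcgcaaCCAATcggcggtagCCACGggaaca

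Herpud1, which encodes a membrane protein that organises the ERAD ubiquitin ligase complex, had no full ER stress response element in the bases searched. Its sequence ends at position -1, however, with CCAAT, 9 bases and CCAC, all but the last letter of that element. The next base was not searched, so whether Herpud1 holds the full element across the start cannot be decided here. The Herpud1 promoter held the ER stress response element II, ATTGG and CCACG with 1 base between them, at positions -52 to -42 from the start. It also held TGATGCAA, a form of the C/EBP-ATF element that ATF4 binds, on the opposite strand at positions -112 to -105. The first is present in 0.0304% of all windows and the second in 0.791%, and Herpud1 was the single gene of the 44 with either. The motifs do not overlap and are in capitals.
Herpud1 (chr8:94386279-94386428, plus strand): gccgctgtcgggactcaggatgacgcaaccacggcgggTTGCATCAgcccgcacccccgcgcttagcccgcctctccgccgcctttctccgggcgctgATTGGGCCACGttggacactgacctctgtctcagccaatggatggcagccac

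The unfolded protein response element TGACGTGG and a further C/EBP-ATF form, TGATGAAA, were in 0 of the 44 windows, against 0.563% and 0.883% of all windows. A match is a description of these letters and not a measured binding site.

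Values are RMA log2 signals, in which a difference of 1 is a doubling, and differences are 4EGI-1 minus untreated. They were tested with limma on all 19937 genes, with an adjusted p under 0.05 as the threshold. Signals depend on the probes, so levels are compared between groups and not between genes. Arrays of a group correlated at 0.996 to 0.997 across genes and arrays of different groups at 0.988 to 0.990, and median signals were 6.62 to 6.68. All 7 measured T-cell markers (of 8 listed) lay above the median gene, as did 1 of 4 B-cell, 0 of 5 plasma-cell, 1 of 5 myeloid, 1 of 2 erythroid and 4 of 5 stromal and endothelial markers. The summed linear signal of the T-cell markers was 17534 to 18022 with 4EGI-1, against 20963 to 21689 in untreated samples, without overlap, and 4 of the 7 fell. The summed signal of the plasma-cell markers, which mark a cell type rich in ER, was 278 to 308 with 4EGI-1, against 293 to 303 in untreated samples. Of these, Jchain, a dim gene at the 11.4th percentile of signal, rose by 0.96 and Sdc1 fell by 0.26. The stromal and endothelial sum was 882 to 902 with 4EGI-1, against 929 to 946 in untreated samples, without overlap, though limma called 0 of its 5 genes, and 0 had an unadjusted p under 0.05. The part of these shifts in the results was not tested.

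Of the 53 genes, 5 rose and 10 fell on polysomes with 4EGI-1, and 38 did not pass the test. That is 28.3% called, against 22.9% of all genes. The genes have well-expressed mRNAs, however, and among the 9561 genes at or above the lowest signal of a measured list gene 39.9% were called, a comparison chosen after the data were seen. By direction, 9.43% of the 53 rose, against 11.5% of all genes and 18.8% of the 9561. The share that fell was 18.9%, against 11.5% of all genes and 21.1% of the 9561. The groups did not overlap in 32 of the 53 genes, or 60.4%, against 37.9% of all genes and 60.1% of the 9561. The shares of the 53 genes called in either direction thus lay below those of the 9561. That set has a floor of signal but is not matched to the 53, and no test of the list was made. Of the 28 unfolded protein response and ERAD genes 3 rose and 3 fell, with a median difference of -0.02. Of the 25 translocation and glycosylation genes 2 rose and 7 fell, with a median of -0.09, beside a median of -0.03 over all genes. The contrast between these groups was not tested. The first group had 1 lower without any one 4EGI-1 array or without untreated replicate 2, and the second had 1 higher without 4EGI-1 replicate 1 or 3 or untreated replicate 2 or 3.

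**Figure D1:**
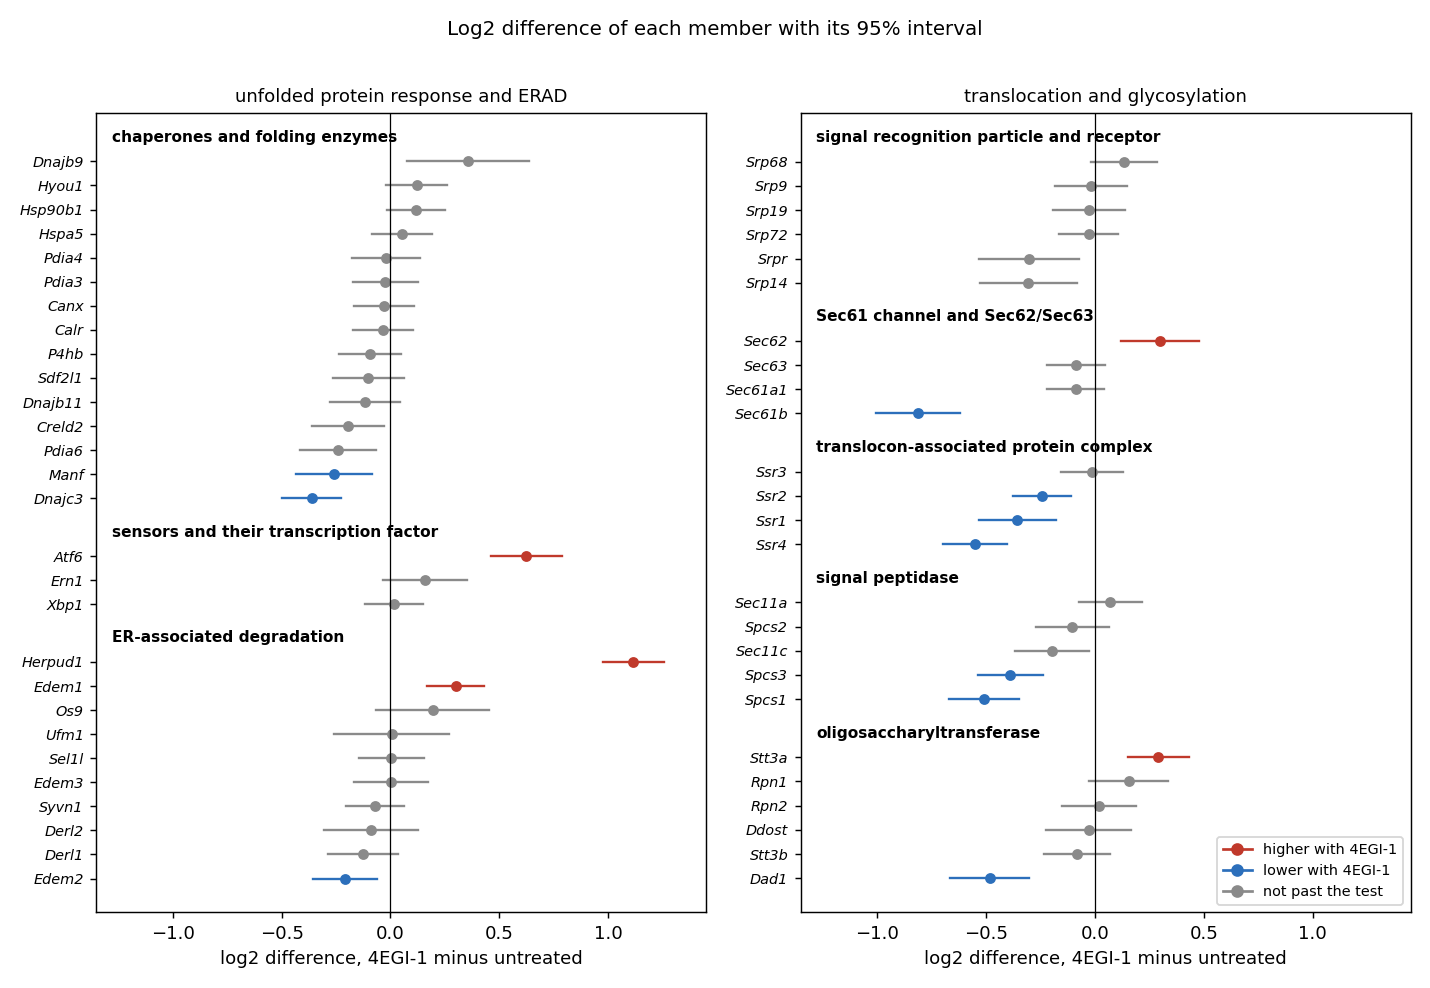
Log2 difference (x axis, 4EGI-1 minus untreated) of each of the 53 genes (y axis, by role), with 95% intervals from limma, 3 arrays per group. Herpud1 at 1.12 and Sec61b at -0.81 mark the ends, and most chaperone intervals include 0.

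Most chaperone and folding enzyme genes did not pass the test. Among the 15, limma called 0 higher and 2 lower, with a median difference of -0.03. Over all genes 11.5% were called in each direction, and of the 9561 brighter genes 18.8% rose and 21.1% fell. At an unadjusted p under 0.05, 1 of the 15 was higher and 4 were lower. The share of all genes at that cut was not counted, but 22.9% passed with adjustment. Hspa5, the master ER chaperone BiP, had 11.50, 11.44 and 11.45 with 4EGI-1, against 11.35, 11.44 and 11.44 in untreated samples. These ranges overlap. The difference of 0.05 had a 95% interval of -0.09 to 0.19. Hsp90b1, the ER form of HSP90, gave 0.12 (-0.02 to 0.25; adjusted p = 0.211, and 0.0193 with a trended robust prior) and Hyou1, a large HSP70-like exchange factor, 0.12 (-0.02 to 0.26). The lectin chaperone genes Calr and Canx gave -0.03 each, with intervals within 0.17 of 0. Among the disulfide isomerases Pdia3 and Pdia4 each gave -0.02 and P4hb gave -0.09.

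The J-domain genes of this group, whose proteins hand clients to BiP, gave differences of both signs. Dnajc3, which encodes a BiP co-chaperone also known as an inhibitor of eIF2α kinases, had 11.04, 10.99 and 10.98 with 4EGI-1, against 11.40, 11.37 and 11.32 in untreated samples. Every treated value lay below every untreated one. It fell by 0.36 ± 0.06 (SE; adjusted p = 0.00305), to 0.778 times the untreated level. Dnajb9 (ERdj4), an inducible co-chaperone that restrains IRE1, had 7.57, 7.19 and 7.25 with 4EGI-1, against 6.90, 6.86 and 7.18 in untreated samples. Its groups did not overlap, but the treated replicate 2 and the untreated replicate 3 lay close together, and the difference of 0.36 did not pass (adjusted p = 0.0733; 0.0375 without untreated replicate 3). Dnajb11 gave -0.12 (adjusted p = 0.294), and its partner gene Sdf2l1 gave -0.10.

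Manf, which encodes a secreted ER stress factor that binds BiP, fell to 8.79, 8.79 and 8.74 with 4EGI-1, against 8.88, 9.12 and 9.08 in untreated samples. The groups did not overlap. The difference was -0.26 ± 0.08 (SE; adjusted p = 0.0428), and the call was kept without untreated replicate 1 but lost without any other single array: the adjusted p was 0.0880, 0.0866 and 0.112 without 4EGI-1 replicates 1, 2 and 3, and 0.134 and 0.131 without untreated replicates 2 and 3. Pdia6, a disulfide isomerase that also attenuates IRE1, gave -0.24 (adjusted p = 0.0551; 0.0470 without untreated replicate 3), and the stress-inducible Creld2 gave -0.20 (adjusted p = 0.0918). Both had groups that did not overlap.

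Of the sensors, Atf6 rose. It had 9.24, 9.19 and 9.27 with 4EGI-1, against 8.72, 8.59 and 8.52 in untreated samples. All treated arrays lay above all untreated ones. The difference was 0.62 ± 0.07 (SE; adjusted p = 0.000546), or 1.54 times the untreated level. Ern1, the gene of the splicing kinase IRE1, gave 0.16 (-0.04 to 0.35; adjusted p = 0.241). Xbp1, whose mRNA IRE1 splices, had 7.99, 8.02 and 8.05 with 4EGI-1, against 8.01, 7.98 and 8.02 in untreated samples. The groups overlapped, and the difference was 0.02 (-0.12 to 0.15). The probe set does not report the spliced form separately.

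In ERAD, 2 of 10 genes rose and 1 fell, beside 11.5% of all genes in each direction. Of the 9561 brighter genes 18.8% rose and 21.1% fell. Herpud1 had 10.03, 9.98 and 10.03 with 4EGI-1, against 8.96, 8.84 and 8.89 in untreated samples. The gap between the groups was many times the spread within either. It rose by 1.12 ± 0.06 (SE; adjusted p = 4.75e-05), to 2.17 times the untreated level, the largest difference of the 53 genes in either direction. Of the 8 genes with the ER stress response element shown above, limma called 0 higher and 1 lower (Dnajc3). At an unadjusted p under 0.05, 0 were higher and 3 lower, and the differences ran from -0.36 to 0.12. With adjustment 22.9% of all genes passed, and their share at the unadjusted cut was not counted.

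Outside the list, 12 measured genes hold the ER stress response element, of which 3 rose. They were Alg12, a mannosyltransferase gene of N-glycan synthesis, at 0.77, the deadenylase subunit gene Pan2 at 0.66 and the acetyl-CoA carboxylase gene Acacb at 0.35, named after their values were seen. Of 6 measured genes outside the list with element II, 1 rose, Lrif1, by 0.66. Of 113 with TGATGCAA, 11 rose and 3 fell, with a median difference of -0.03. Over all genes 11.5% were called higher and 11.5% lower, and the counts of genes with these letters were not tested against those shares.

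The EDEM genes encode mannosidase-like proteins that mark misfolded glycoproteins for removal, and they gave differences of both signs. Edem1 had 11.79, 11.77 and 11.75 with 4EGI-1, against 11.48, 11.44 and 11.49 in untreated samples. It rose by 0.30 ± 0.06 (SE; adjusted p = 0.00644), with no overlap. Edem2 had 8.35, 8.24 and 8.39 with 4EGI-1, against 8.53, 8.55 and 8.53 in untreated samples. The groups were apart, and the difference of -0.21 ± 0.06 passed narrowly (adjusted p = 0.0495). Without any single array Edem2 no longer passed: 0.0887, 0.137 and 0.0603 without 4EGI-1 replicates 1, 2 and 3, and 0.106, 0.127 and 0.112 without untreated replicates 1, 2 and 3. Edem3 differed by 0.00 (-0.17 to 0.17).

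The core of the retrotranslocation complex did not pass. Syvn1, the ubiquitin ligase HRD1, gave -0.07 and its adaptor gene Sel1l 0.00. The derlin genes Derl1 and Derl2, thought to form part of the exit path, gave -0.13 (-0.29 to 0.04) and -0.09 (-0.30 to 0.13). The lectin gene Os9 gave 0.19 (-0.07 to 0.45). Ufm1, the ubiquitin-like modifier needed for ER homeostasis, was uncertain because its probe sets disagreed. The one used by the rule gave 0.01, while the dimmer one had 7.78, 7.18 and 7.42 with 4EGI-1, against 6.27, 6.49 and 6.53 in untreated samples, a difference of 1.03. The mean of both gave 0.52 (adjusted p = 0.0169).

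**Figure D2:**
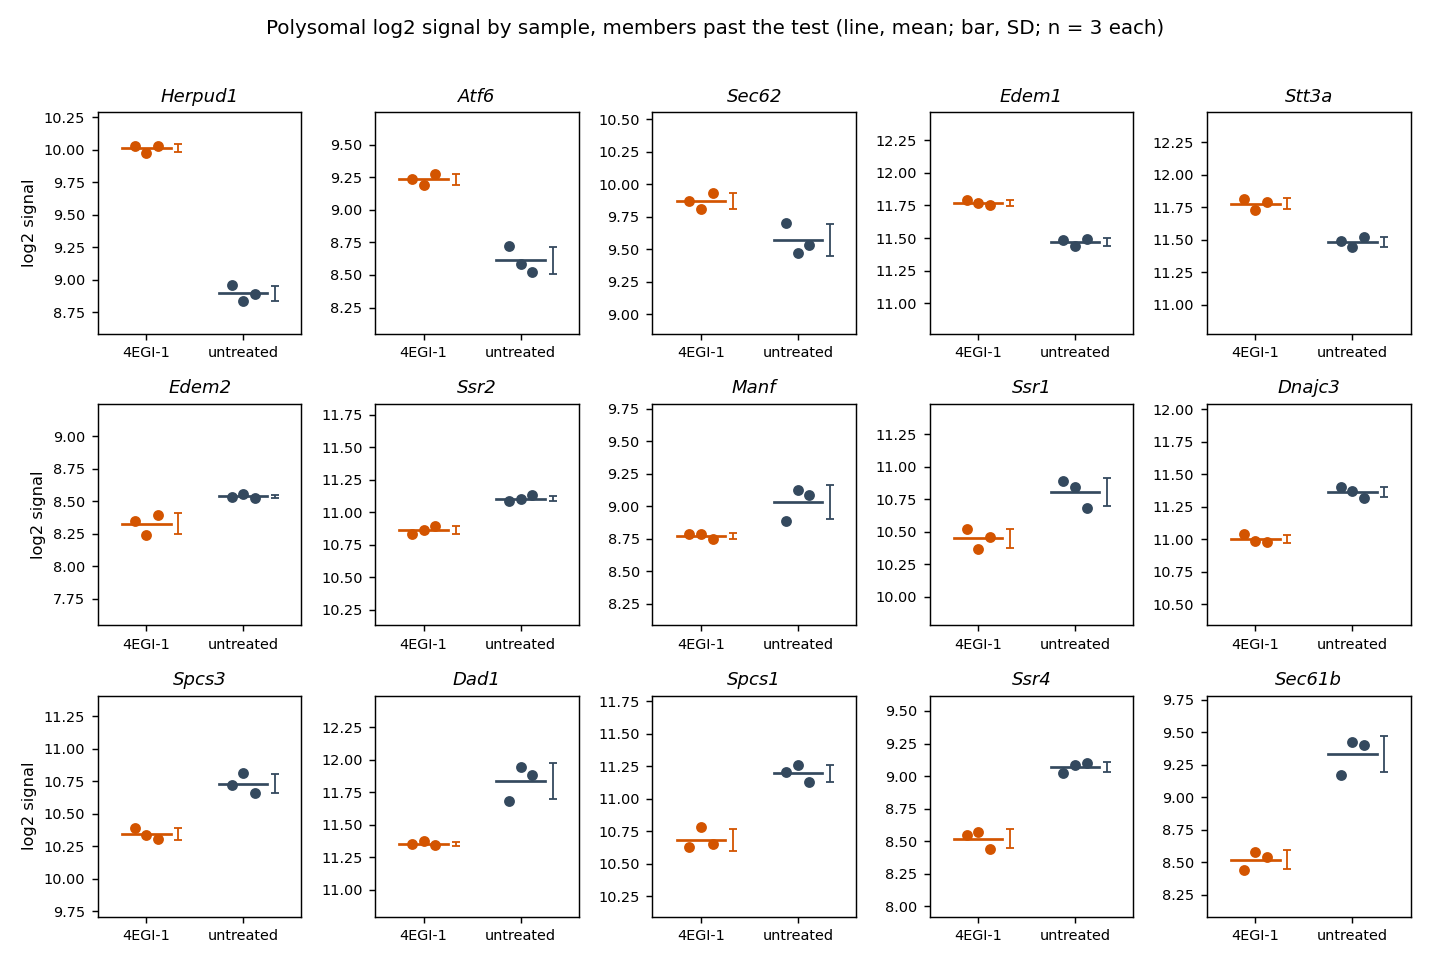
Log2 signal (y axis, the same span in each panel) of the 15 genes past the test, one point per array, 4EGI-1 left and untreated right; lines are means, bars are SD, n = 3 each. The groups do not overlap in any panel, and Herpud1 and Sec61b have the widest gaps.

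Translocation begins with the signal recognition particle. Of 5 genes of its subunits and the receptor gene Srpr, limma called 0, against 22.9% of all genes. At an unadjusted p under 0.05, 2 were lower, a cut at which the share of all genes was not counted. Srp14, which with Srp9 forms the domain that pauses elongation, had 10.23, 10.23 and 10.12 with 4EGI-1, against 10.30, 10.51 and 10.68 in untreated samples. The groups did not overlap, but the untreated values were spread, and the difference of -0.31 had an adjusted p of 0.0574 (0.0175 without untreated replicate 1). Srpr, the docking receptor, gave -0.30 (adjusted p = 0.0653; 0.0380 without untreated replicate 3). Srp9, Srp19, Srp72 and Srp68 lay between -0.03 and 0.13.

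Of the Sec61 channel, the beta subunit gene fell and the pore gene did not pass. Sec61b had 8.44, 8.58 and 8.54 with 4EGI-1, against 9.17, 9.42 and 9.41 in untreated samples. All treated values lay below all untreated ones. It fell by 0.81 ± 0.08 (SE; adjusted p = 0.000362), to 0.570 times the untreated level. Its other probe sets also had separate groups, with differences of -0.49 and -0.69. Sec61a1, the pore-forming subunit, had 11.39, 11.43 and 11.36 with 4EGI-1, against 11.48, 11.50 and 11.47 in untreated samples, a difference of -0.09 (-0.22 to 0.04; adjusted p = 0.342). The interval of Sec61a1 does not reach that of Sec61b, -1.01 to -0.62, though the difference between these genes was not itself tested.

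The accessory translocation genes Sec62 and Sec63, which help post-translational and difficult substrates into the channel, are members of one complex. Sec62 had 9.87, 9.81 and 9.93 with 4EGI-1, against 9.71, 9.47 and 9.53 in untreated samples. It rose by 0.30 ± 0.08 (SE; adjusted p = 0.0252), with no overlap. The call was lost without 4EGI-1 replicate 1 or 3 (adjusted p = 0.0631 and 0.0807) and without untreated replicate 2 or 3 (0.0856 and 0.0821). Sec63 gave -0.09 (-0.22 to 0.05).

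The translocon-associated protein (TRAP) complex, which assists insertion of many nascent chains beside Sec61, had 3 of 4 genes lower. Over all genes 11.5% fell, and 21.1% of the 9561 at or above the lowest signal of a measured list gene. With 4 genes the share is coarse, and it was not tested. Ssr4, the delta subunit, had 8.54, 8.57 and 8.44 with 4EGI-1, against 9.02, 9.08 and 9.10 in untreated samples. The groups were far apart, and it fell by 0.55 ± 0.06 (SE; adjusted p = 0.000609), to 0.683 times the untreated level. Ssr1, the alpha subunit, had 10.52, 10.37 and 10.46 with 4EGI-1, against 10.89, 10.84 and 10.68 in untreated samples, and fell by 0.36 ± 0.08 (adjusted p = 0.0116).

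Ssr2, the beta subunit, had 10.83, 10.86 and 10.90 with 4EGI-1, against 11.09, 11.10 and 11.13 in untreated samples. It fell by 0.24 ± 0.06 (SE; adjusted p = 0.0175; 0.0565 without 4EGI-1 replicate 1 and 0.0659 without untreated replicate 3). Ssr3, the gamma subunit, had 11.58, 11.49 and 11.46 with 4EGI-1, against 11.53, 11.54 and 11.49 in untreated samples. These values overlapped, with a difference of -0.01 (-0.15 to 0.13).

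Of 5 signal peptidase genes 2 fell, both for non-catalytic subunits. The share that fell was 11.5% of all genes and 21.1% of the 9561 brighter genes, and with 5 genes a share is coarse. Spcs1 had 10.63, 10.78 and 10.65 with 4EGI-1, against 11.20, 11.26 and 11.13 in untreated samples. It fell by 0.51 ± 0.07 (SE; adjusted p = 0.00132), with no overlap, to 0.702 times the untreated level. Spcs3 had 10.39, 10.33 and 10.31 with 4EGI-1, against 10.72, 10.81 and 10.66 in untreated samples, and fell by 0.39 ± 0.07 (adjusted p = 0.00354). Spcs2 did not pass, at -0.10. The catalytic subunit genes are paralogues that substitute for each other in the enzyme. Sec11a gave 0.07 (-0.07 to 0.22) and Sec11c -0.20 (-0.37 to -0.02; adjusted p = 0.103).

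Oligosaccharyltransferase, which attaches N-glycans, had 1 of 6 genes higher and 1 lower. Over all genes 11.5% were called in each direction, beside 18.8% higher and 21.1% lower among the 9561 brighter genes. Dad1, a small subunit of the complex, had 11.35, 11.37 and 11.34 with 4EGI-1, against 11.68, 11.94 and 11.89 in untreated samples. The treated arrays were nearly identical and all lower, and it fell by 0.48 ± 0.08 (SE; adjusted p = 0.00299). Stt3a, the catalytic subunit that works beside the channel during translation, had 11.81, 11.73 and 11.79 with 4EGI-1, against 11.49, 11.44 and 11.52 in untreated samples. It rose by 0.29 ± 0.06 (adjusted p = 0.00905), with no overlap.

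Stt3b, the alternative catalytic subunit that acts on sites skipped during translation, had 10.91, 10.91 and 10.80 with 4EGI-1, against 11.03, 10.90 and 10.94 in untreated samples. The groups overlapped and the difference was -0.08 (-0.23 to 0.07). The intervals of Stt3a (0.15 to 0.43) and Stt3b do not overlap, but their difference was not tested. The structural subunit genes Rpn1, Rpn2 and Ddost gave 0.16, 0.02 and -0.03, and none passed.

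**Figure D3:**
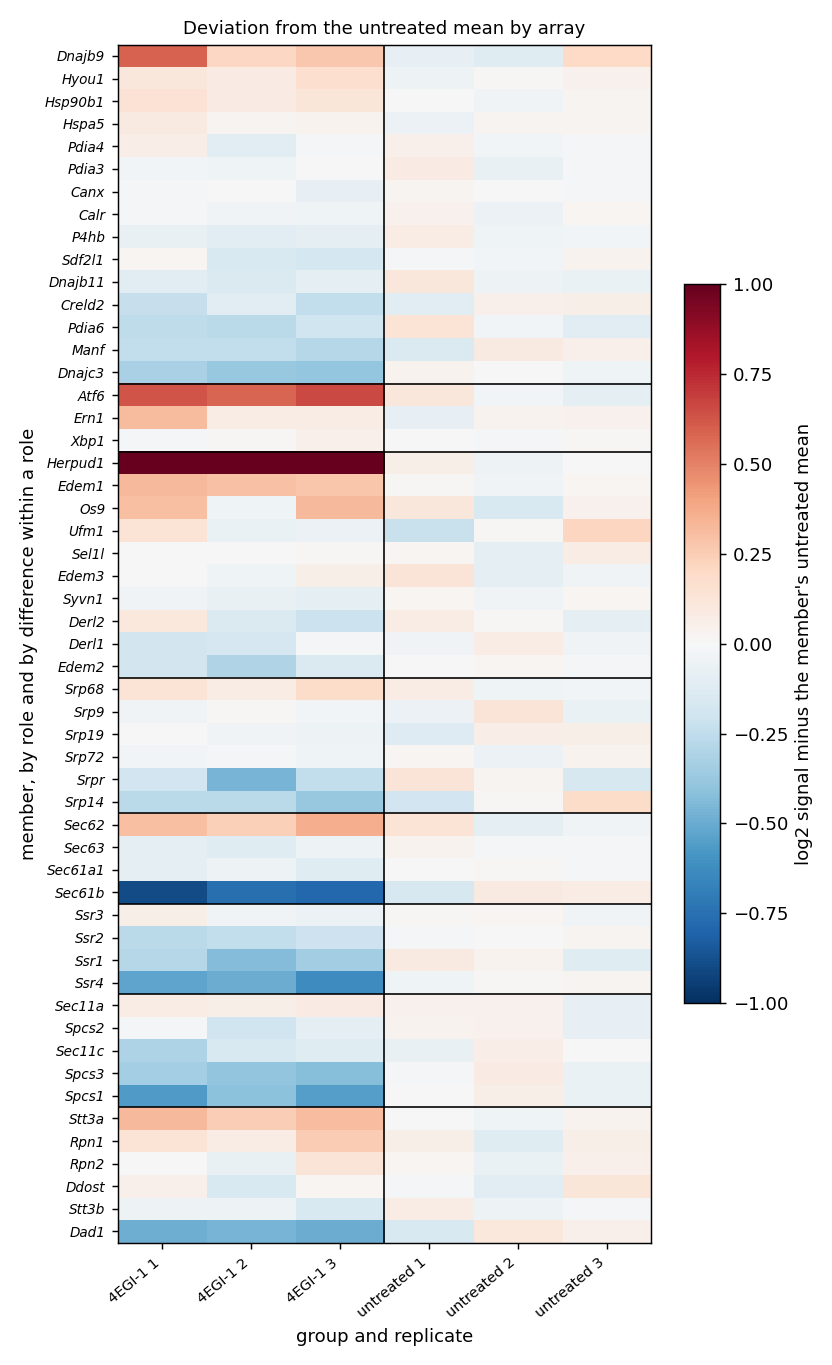
Log2 signal minus the untreated mean of each of the 53 genes (rows, by role) on each array (columns, 4EGI-1 left and untreated right); the colour scale is clipped at 1 log2 unit. The treated columns share the strong rows, Herpud1 and Atf6 above and Sec61b, Ssr4, Spcs1 and Dad1 below the untreated mean.

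Over the translocation and glycosylation genes the median deviation from the untreated mean was -0.05, -0.12 and -0.10 on 4EGI-1 arrays 1, 2 and 3, and between -0.02 and 0.02 on untreated arrays, so all treated arrays lay lower. Over the unfolded protein response and ERAD genes it was 0.00, -0.04 and -0.02 with 4EGI-1, and -0.03 to 0.02 in untreated samples. Among the called genes, Spcs1 overlaps Glt8d1, and Atf6, Dnajc3, Edem1 and Ssr1 overlap predicted genes in the RefSeq table. Strand and probe position were not compared, so whether an overlapping transcript adds to these signals was not tested.

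Further genes of the same pathways, from lists that hold none of the 53, are set beside them. Over all genes 11.5% were called in each direction, and among the 9561 brighter genes 18.8% rose and 21.1% fell. These further lists also hold dimmer genes than the 53, so neither share is matched to them. Of 15 other signalling genes of the unfolded protein response 6 rose and 2 fell, with a median difference of 0.10. Ddit3, which encodes the transcription factor CHOP, had 8.72, 8.65 and 8.63 with 4EGI-1, against 7.73, 7.89 and 7.79 in untreated samples, and rose by 0.86 ± 0.07 (SE; adjusted p = 0.000115). Eif2ak3, the gene of the sensor PERK, rose by 0.81, and Ppp1r15a, a phosphatase subunit gene that reverses eIF2α phosphorylation, by 0.78. The pseudokinase gene Trib3 rose by 0.62 and Atf4 by 0.48. Ppp1r15b, the paralogue of Ppp1r15a, gave 0.10 (adjusted p = 0.341). Also higher, and named after its values were seen, was Creb3l2, a dim transcription factor gene at the 17.5th percentile of signal, by 0.24. Mbtps1, the protease that cleaves ATF6, fell by 0.43 and the ATF6 paralogue gene Atf6b by 0.28 (these and Ppp1r15b named after their values were seen).

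Of 25 other folding and glycan-processing genes 4 rose and 5 fell, with a median of -0.02. Uggt1, the folding sensor that re-tags glycoproteins in the calnexin cycle, rose by 0.92 ± 0.08 and Ganab, the catalytic subunit of glucosidase II, by 0.85 ± 0.07 (SE; adjusted p = 0.000135 and 0.000138). Mogs, which encodes the preceding glucosidase I, fell by 0.39. Fkbp2, an ER prolyl isomerase gene, fell by 0.54 and the disulfide isomerase gene Txndc5 by 0.38. Named after their values were seen, Prkcsh, the other glucosidase II subunit gene, rose by 0.35 and the J-domain gene Dnajc1 by 0.21, while Erp29 fell by 0.25 and Pdia5 by 0.24.

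Of 24 other ERAD and UFMylation genes 5 rose and 5 fell, with a median of 0.02. That is 20.8% in each direction, close to the shares among the brighter genes. Vcp, the ATPase p97 that extracts ERAD substrates, had 11.51, 11.36 and 11.51 with 4EGI-1, against 10.68, 10.76 and 10.87 in untreated samples, and rose by 0.69 ± 0.08 (SE; adjusted p = 0.000485). Ufl1, the ligase for UFM1, rose by 0.53, and the ER ubiquitin ligase genes Marchf6 and Rnf139 by 0.44 and 0.28. Man1b1, an ER mannosidase gene, fell by 0.41. Named after their values were seen, Faf2, which recruits p97, rose by 0.29. The ubiquitin ligase gene Rnf5 fell by 0.30, Aup1 by 0.30, Ube2g2 by 0.28 and Ufc1, the conjugating enzyme gene for UFM1, by 0.26.

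Of 33 other translocation, insertion and glycosylation genes 3 rose and 16 fell, with a median of -0.17. Alg14, which recruits a glycosyltransferase subunit in N-glycan precursor synthesis, fell by 0.64. Get1, an insertion receptor gene for tail-anchored proteins, fell by 0.63. Mmgt1, a subunit gene of the ER membrane protein complex, fell by 0.49 and the translocation accessory gene Tram1 by 0.44. Bag6, a chaperone gene for tail-anchored proteins, rose by 0.60. The other genes that rose, named after their values were seen, were Caml (0.36) and Alg5 (0.24). The share that fell here was 48.5%, beside 28.0% of the 25 listed translocation and glycosylation genes. It was 11.5% over all genes and 21.1% among the 9561 brighter genes. No test of a whole list was made.

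**Figure D4:**
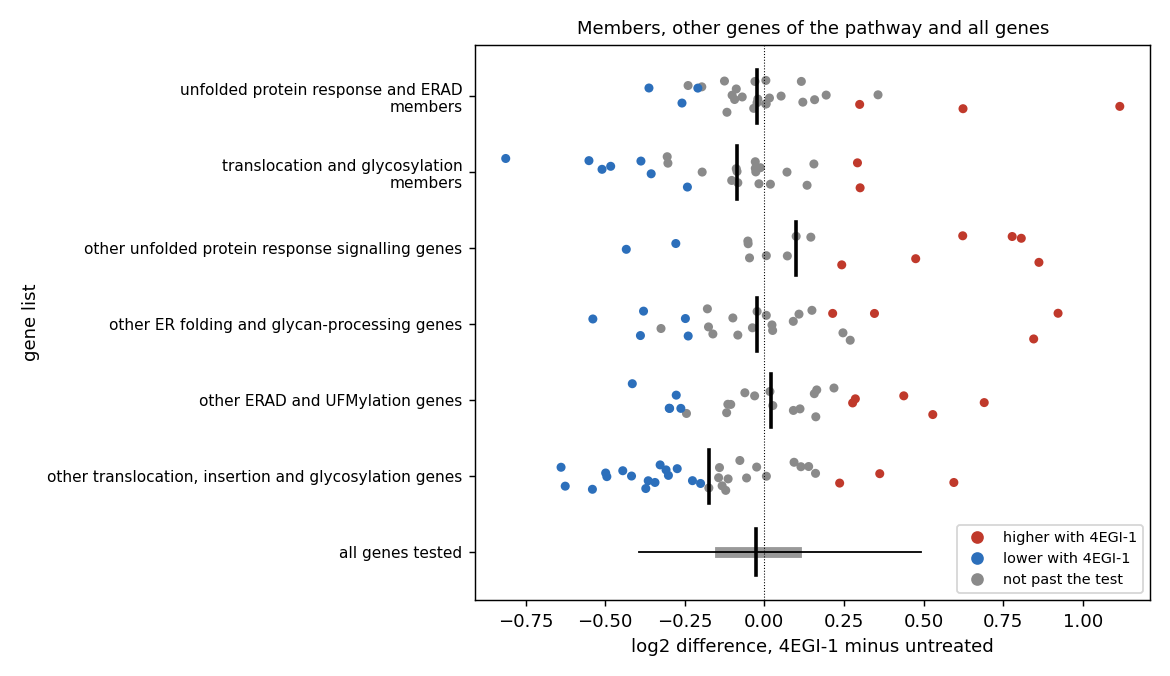
Log2 differences (x axis, 4EGI-1 minus untreated) of both groups of the 53 genes and of the other pathway lists (y axis), one point per gene, coloured by call, with medians as vertical lines. The lowest row shows all 19937 genes as median, quartiles (thick) and the 5th to 95th percentile (thin); the other translocation genes lie furthest left, with a median of -0.17.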

How the data were processed

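Polysomal RNA of 6 samples was amplified, labelled with biotin and put on 1 array each, per the labels' protocols. The log2 signals that the authors deposited came from RMA, as the submitters' processing notes name it. Its software version is not stated in these sources. By design the method brings arrays to a common distribution, so a global change in polysomal RNA is not measured, and 3 arrays per group limit the precision.

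Of 34760 probe sets, 21640 had 1 gene symbol in the platform annotation, 1321 several, and 11799 were not listed there. Where a symbol had several, the brightest by mean over all arrays stood for it. All 19937 genes were tested two-sided with limma (version 3.58.1; R 4.3.3), using lmFit, eBayes and Benjamini-Hochberg adjustment, with 8.15 degrees of freedom. Groups follow the titles. The design text calls the samples biological replicates and says no more of their source. Tested on simulated data for this comparison, with 200 of 19937 genes changed, far fewer than were called here, the fit called 92.4%, 55.2% and 0% of changes of 1, 0.5 and 0.25 on the log2 scale. The adjustment is stricter when few genes change, so these rates need not hold for the present data.

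The genes and lists were chosen with earlier results of these data known. Named are all list genes past the threshold, others needed to show a role group, and up to 5 called genes of each other pathway list by adjusted p; any further gene is marked as named after its values were seen. Alternatives covered the block, filters, probe sets, normalization, variance model, threshold and single arrays left out. Protein sequences were not used here.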

Additional observations from a re-analysis of the deposited data

How the results depend on the processing

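Of the 15 called genes, 10 passed in all 16 alternatives and 0 changed sign. Manf, Edem2, Sec62, Ssr1 and Ssr2 lost the call in at least 1, Ssr1 at the threshold of 0.01 only. Of the 38 others, 8 passed in at least 1 (Pdia6, Dnajb9, Creld2, Hsp90b1, Ufm1, Srp14, Srpr and Sec11c). Besides Ufm1, 11 uncalled genes had the other sign in some alternative, with an adjusted p of at least 0.712 there. The deviations of same-numbered samples from their group means had correlations of 0.061, 0.107 and -0.021. Those of other-numbered samples ran from -0.109 to 0.055. With 3 arrays per group this cannot settle whether the numbers mark pairs. With a replicate block, 5 of the 53 genes were higher and 8 lower, and of the unfolded protein response and ERAD genes 1 was lower. With every probe set tested, 1 of these was lower and 1 translocation and glycosylation gene higher. With a trended robust prior, 7 of the 53 were higher and 15 lower, with 5 unfolded protein response and ERAD genes higher and 5 lower, and 10 translocation and glycosylation genes lower. Among genes at or above the median signal, 15 of the 53 were lower, 5 and 10 in these groups. At an adjusted p under 0.01, 6 of the 53 were lower, with 1 unfolded protein response and ERAD gene lower, 1 translocation and glycosylation gene higher, and over all genes 1488 higher and 1248 lower. Leaving out 1 sample gave 4 to 5 of the 53 higher and 7 to 10 lower. It gave 1 to 2 unfolded protein response and ERAD genes lower, and 1 to 2 translocation and glycosylation genes higher and 6 to 8 lower. The cause was not tested, except that fewer arrays or a stricter threshold are part of those alternatives.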

Other observations

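Among the other translocation, insertion and glycosylation genes, some complexes had genes that fell and genes that did not pass. The genes are named here after their values were seen. Of the oligosaccharyltransferase, the accessory subunit genes Tmem258, Tusc3, Ostc, Ost4 and Krtcap2 had differences of -0.54, -0.36, -0.33, -0.27 and -0.23 and passed. Tmem258 had 6.19, 6.51 and 6.24 with 4EGI-1, against 6.84, 6.84 and 6.87 in untreated samples, without overlap. Magt1, the paralogue of Tusc3, gave -0.06 (adjusted p = 0.662). Emc6, Mmgt1 and Emc8, subunit genes of the ER membrane protein complex, had differences of -0.50, -0.49 and -0.31 and passed. Emc2, Emc3, Emc4, Emc7, Emc9 and Emc10 did not, at -0.14 to 0.14. Dpm2 and Dpm3, which anchor and stabilise the dolichol-phosphate-mannose synthase, had differences of -0.37 and -0.42 and passed, while Dpm1, the catalytic subunit gene, gave -0.13 and did not. The test was limma, at an adjusted p under 0.05.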
